A study of Mus musculus with 194 samples.

Results

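The Mef2c domain is the stretch of mouse chromosome 13 from 82.5 to 84.5 Mb (GRCm38), which holds the gene Mef2c and the gene-poor sequence on both sides of it. It was analysed as 40 windows of 50 kb out of 52623 windows on chromosomes 1 to 19 and X. The domain was chosen by the insertions per 1000000 insertions of a table (IPM) in its windows. The reason was a window beside Mef2c. It had been among the strongest decreases when SP1 animals of postnatal day 28 were set against Syn1Cre animals. That contrast is therefore described here and not tested. The same Syn1Cre animals enter other comparisons, whose differences at and before Mef2c are not independent of the choice. The domain holds 23 annotated genes, of which 2 are protein-coding (Mef2c and Tmem161b), 13 are long non-coding RNAs, 3 are microRNAs and 5 are pseudogenes. Mef2c runs from 83504017 to 83667079 on the plus strand and covers 163 kb. The nearest protein-coding gene before it, Cetn3, ends 1707 kb away, and Tmem161b starts 555 kb after its end.

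The study recorded where a transposase inserts transposons in the genome of living mouse brain, a method called calling cards. The transposase inserts at the sequence TTAA, and each line of a deposited table is 1 insertion. An unfused transposase is drawn to open, active chromatin, and one fused to a DNA-binding factor such as SP1 is also drawn to where that factor binds. Virus (AAV) was injected at postnatal day 0 to 1, and 46 animals in 11 groups and 1 pooled table of N2a cells, a mouse neuroblastoma line, were analysed.

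The groups were Syn1Cre (6 animals) and Syn1CreNeg (6), GFAPCre (6) and GFAPCreNeg (6), Frontflip_GFAPCre (3) and Frontflip_GFAPCreNeg (3), Rbp4Cre_TRAP (4), Syn1Cre_SP1_P10 (3), Syn1Cre_SP1_P28 (4), C57bl6J (2) and BrokenHeart (3). Syn1 is a promoter of neurons, GFAP one of astrocytes that is also used by neural progenitors, and Rbp4-Cre marks layer V cortical projection neurons. Names ending in CreNeg mark the Cre-negative animals, and the C57bl6J animals received viruses that need no Cre. The labels do not say what Frontflip stands for, and they give ages (postnatal day 10 and 28) only for the SP1 groups. Cortex was used in all animal groups except Rbp4Cre_TRAP, which was whole forebrain. Insertions were read from RNA (self-reporting transposons), except in BrokenHeart, where they were read from DNA. The number of insertions per table ran from 2341 to 9601 in Frontflip_GFAPCreNeg, from 24408 to 98197 in Rbp4Cre_TRAP, BrokenHeart and Syn1Cre_SP1_P10, and from 97519 to 2186743 in the other groups of animals. Within the 82 pairs of animals of one group, the pairs closest to sampling noise shared at most 4.68% of their lines, and every table was kept as a separate animal.

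MEF2C is a MADS-box transcription factor that cells switch on through calcium and kinase signals and hold down through class IIa histone deacetylases. In cortex it acts in the maturation of excitatory neurons and in the control of synapse number, and it is also used by microglia, endothelium and muscle. Large genes that steer development often lie in gene deserts that hold their distant enhancers. Mir9-2, which lies after Mef2c inside the long non-coding RNA gene C130071C03Rik, encodes miR-9, a microRNA of neural progenitors and neurons.

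Sequences are shown for annotated start sites of Mef2c and C130071C03Rik, because the transposase needs a TTAA and SP1 is known to bind GC boxes. Promoter windows of 300 bases were listed in the RefSeq tables for GRCm38 (250 bases before to 50 after a start), 3 for Mef2c and 3 for C130071C03Rik. Capitals mark TTAA and the GC box GGGCGG, which reads as its reverse complement where it lies on the other strand, and all sequences are of the plus strand. The upstream Mef2c promoter (chr13:83503784-83504083) has 4 TTAA and no GGGCGG and held 39 insertions from 22 animals.

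Mef2c promoter 1: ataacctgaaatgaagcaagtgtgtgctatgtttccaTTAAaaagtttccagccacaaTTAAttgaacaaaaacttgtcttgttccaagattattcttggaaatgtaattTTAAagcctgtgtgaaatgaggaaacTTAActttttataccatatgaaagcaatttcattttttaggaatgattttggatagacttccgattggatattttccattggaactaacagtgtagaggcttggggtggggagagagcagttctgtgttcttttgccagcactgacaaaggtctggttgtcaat

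Mef2c promoter 2 (chr13:83523406-83523705) has 2 TTAA and 1 GGGCGG and held 65 insertions from 26 animals.

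Mef2c promoter 2: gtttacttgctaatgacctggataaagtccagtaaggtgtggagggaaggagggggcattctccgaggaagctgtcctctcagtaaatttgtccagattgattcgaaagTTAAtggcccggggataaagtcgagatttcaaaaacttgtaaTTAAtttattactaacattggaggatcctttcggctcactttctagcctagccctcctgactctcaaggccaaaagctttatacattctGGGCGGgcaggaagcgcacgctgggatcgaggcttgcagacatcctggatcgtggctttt

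The first C130071C03Rik promoter (chr13:83721131-83721430) has no TTAA and 1 GC box on the minus strand, and no insertion lay in it. The second (chr13:83727856-83728155) has 2 TTAA and no GC box and held 154 insertions from 35 animals, the most of the promoters listed here.

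C130071C03Rik promoter 1: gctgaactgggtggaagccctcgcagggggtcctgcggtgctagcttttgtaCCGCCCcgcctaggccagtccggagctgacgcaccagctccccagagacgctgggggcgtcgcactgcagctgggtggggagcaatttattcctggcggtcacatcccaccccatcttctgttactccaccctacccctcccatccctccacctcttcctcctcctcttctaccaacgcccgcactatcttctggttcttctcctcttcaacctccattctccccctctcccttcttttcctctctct
C130071C03Rik promoter 2: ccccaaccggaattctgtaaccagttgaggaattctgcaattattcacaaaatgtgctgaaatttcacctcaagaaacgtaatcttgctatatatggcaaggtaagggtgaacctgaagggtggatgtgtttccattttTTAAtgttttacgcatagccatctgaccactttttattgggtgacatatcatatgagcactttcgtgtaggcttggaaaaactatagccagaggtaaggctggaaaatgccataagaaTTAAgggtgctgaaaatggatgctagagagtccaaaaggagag

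The third promoter of each gene (chr13:83573357-83573656 for Mef2c, chr13:83732243-83732542 for C130071C03Rik) has neither a TTAA nor a GC box and held no insertion. Of the 32851 promoter windows of this length in the table, 52.4% hold a TTAA and 35.7% hold GGGCGG on either strand. All insertions found in these promoters lay on a TTAA. Mir9-2 gives the mature miR-9-5p (chr13:83738821-83738843) and miR-9-3p (chr13:83738858-83738879), printed with the seed, bases 2 to 8, in capitals. The same mature sequences are made by Mir9-1 on chromosome 3 and Mir9-3 on chromosome 7.

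miR-9-5p: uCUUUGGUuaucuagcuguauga
miR-9-3p: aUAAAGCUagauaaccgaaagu

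The domain had the highest mean of all blocks of its length that were compared, in every group of brain samples. If insertions were spread evenly, a domain of 2 Mb would hold 760 IPM. In Syn1Cre the 6 animals ranged from 6473 to 9890 IPM with a median of 6783. In GFAPCre they ranged from 6061 to 8689 with a median of 7940. Among 1300 blocks of 2 Mb, on a grid in which the domain is 1 block, the domain had the highest mean in all 11 groups of animals, while the median block had 482 to 741 IPM. The grid was aligned to the domain, so a rich stretch elsewhere could be split between neighbouring blocks, and other stretches were not ranked.

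N2a cells stood apart from the brain tables. They had 69 domain insertions among 806653, or 85.5 IPM (exact 95% binomial interval 66.6 to 108, which covers counting error only), and the domain was block 1098 of 1300 by level. In the order of the group means, Frontflip_GFAPCreNeg came first with 14371 ± 3878 (SD, n = 3), on only 225 insertions in all. Frontflip_GFAPCre followed with 11406 ± 705 (n = 3), Syn1CreNeg with 9676 ± 1316 (n = 6) and Syn1Cre_SP1_P10 with 8901 ± 852 (n = 3). Rbp4Cre_TRAP had 8384 ± 403 (n = 4), GFAPCreNeg 8365 ± 1108 (n = 6), GFAPCre 7780 ± 946 (n = 6), C57bl6J 7589 ± 161 (n = 2) and Syn1Cre_SP1_P28 7515 ± 1594 (n = 4). Syn1Cre with 7262 ± 1297 (n = 6) and BrokenHeart with 4141 ± 317 (n = 3) closed the order. Ranges of neighbours in this order overlapped at every step except between Syn1Cre and BrokenHeart, which differed 1.75-fold, and between BrokenHeart and N2a.

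**Figure D1:**
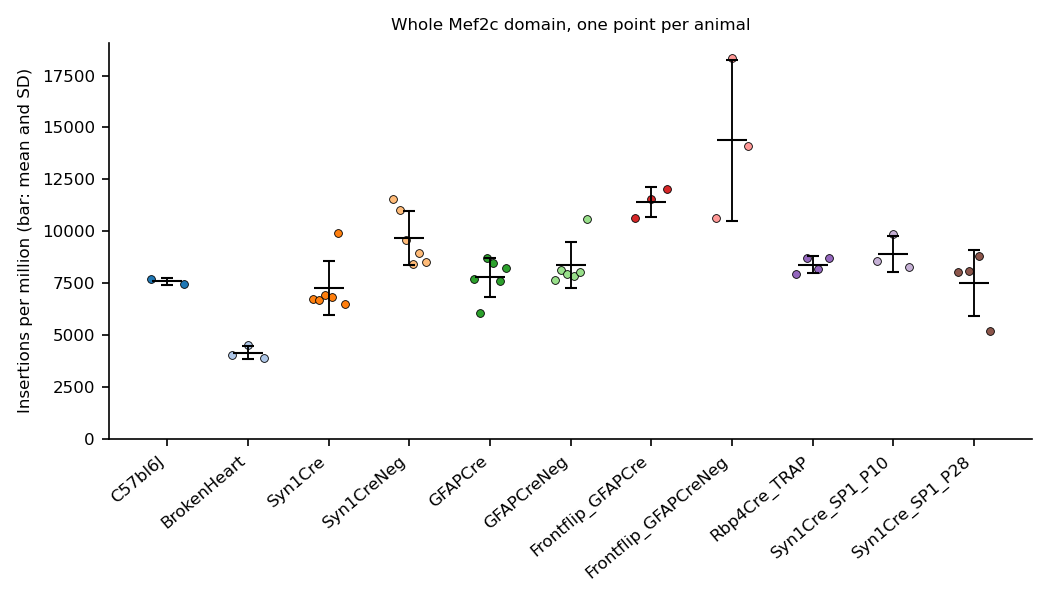
IPM in the whole domain for each animal (points) with the group mean and SD (bars), by group. BrokenHeart lies below every other group of animals and Frontflip_GFAPCreNeg spreads from 10624 to 18368.

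None of the 9 comparisons of the domain total that were tested passed an adjusted p of 0.05 (exact two-sided permutation tests on log2 IPM, adjusted over the 9). Frontflip_GFAPCre (10634, 11567 and 12017) lay above all GFAPCre animals, a log2 difference of 0.56 (exact p = 0.0119, the smallest that 3 against 6 allow, adjusted p = 0.0536). Syn1Cre lay below Syn1CreNeg by a log2 difference of -0.42, with overlapping ranges (exact p = 0.0108, adjusted p = 0.0536). Without Syn1Cre animal 5, whose total was the highest of its group, this difference was -0.51 with an adjusted p of 0.0195 in the same exact test. BrokenHeart (4016, 4501 and 3905) lay below both C57bl6J animals (7703 and 7475) by -0.88, where 3 against 2 cannot go below the exact p = 0.1 that was found; with each position counted once the difference was 0.055. The other 5 log2 differences were -0.11 (Syn1Cre against GFAPCre), -0.11 (GFAPCre against GFAPCreNeg), 0.31 (Syn1Cre_SP1_P10 against Syn1Cre), -0.27 (SP1 P28 against P10) and 0.22 (Rbp4Cre_TRAP against Syn1Cre), with adjusted exact p from 0.18 to 0.431, and Syn1Cre_SP1_P10 against C57bl6J gave 0.23 (adjusted exact p = 0.3). Rbp4Cre_TRAP against Syn1Cre reached 0.31 with an adjusted exact p of 0.0357 without Syn1Cre animal 5. When each position was counted once per animal, 5 of the 9 comparisons passed (adjusted exact p = 0.0234 each). Among them were Frontflip_GFAPCre against GFAPCre at 0.70 and Syn1Cre against Syn1CreNeg at -0.55. In each of these 5 the group with fewer insertions per table on average was the higher one. In the domain, C57bl6J had 3.21 to 3.68 insertions per position and BrokenHeart 1.12 to 1.25. The part of depth in the values by distinct positions was not tested.

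Within the domain the insertions gathered in a few windows. The highest mean of every group of 3 or more animals except Frontflip_GFAPCreNeg was in the window from 83700001 to 83750000, which holds Mir9-2 and the whole of C130071C03Rik. The Mir9-2 window held 1003 and 1052 IPM in the C57bl6J animals, 1130 to 2002 in Syn1Cre (median 1211) and 953 to 1589 in GFAPCre (median 1398). It held 2453, 2918 and 2507 in Syn1Cre_SP1_P10 and 2389, 2487, 2697 and 1574 in Syn1Cre_SP1_P28.

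The window from 84050001 to 84100000, which holds part of the long non-coding RNA gene Gm17750 (84025297 to 84064774), was the highest in Frontflip_GFAPCreNeg with 2604, 5126 and 3530 IPM. It held 818 to 1656 IPM in Syn1Cre (median 877) and 1519 to 2642 in Syn1CreNeg (median 1990), so that only the highest Syn1Cre animal reached into the range of the Cre-negative animals. The window with the start of Mef2c, from 83500001 to 83550000, held 790 to 1088 IPM in Syn1Cre (median 917), 540 to 810 in Syn1CreNeg (median 702) and 730 to 982 in GFAPCre (median 853). It held 1123, 1152, 899 and 1106 in Rbp4Cre_TRAP, 1140, 1248 and 965 in Syn1Cre_SP1_P10 and 763, 716, 893 and 592 in Syn1Cre_SP1_P28. The window that holds the end of Mef2c, from 83650001 to 83700000, was lower, with 259 to 320 in Syn1Cre (median 289). N2a had 4 insertions in the Mir9-2 window and none in the Gm17750 window.

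**Figure D2:**
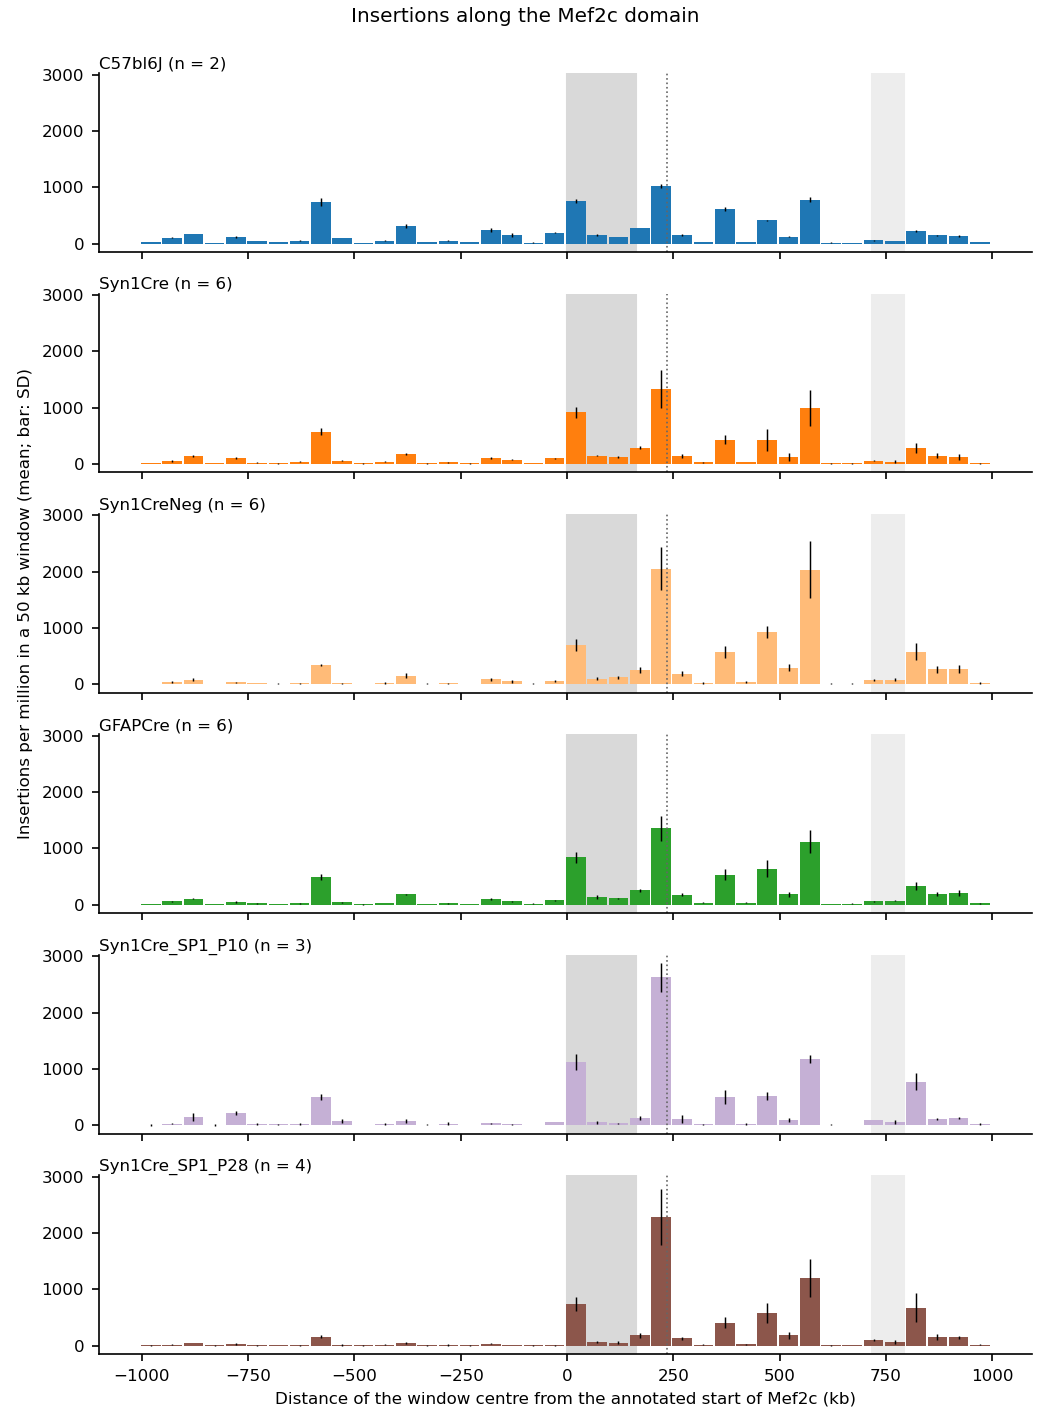
Mean IPM in each 50 kb window (bars, with SD) against the distance of the window centre from the annotated start of Mef2c, for 6 groups on 1 scale. The darker band is Mef2c, the lighter band Tmem161b and the dotted line Mir9-2; the Mir9-2 window is the highest bar in each panel.

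At the scale of single positions, the 161129 domain insertions of the 46 animals lay at 8798 positions. Of these, 2497 were found in 1 animal and 759 in at least 23 animals. The position found most widely, chr13:84064540-84064543 in Gm17750, had insertions in all 46 animals (706 insertions), and so did chr13:84347874-84347877 in Gm41011 (457). Next came chr13:84064762-84064765, also in Gm17750 (45 animals, 540 insertions), and chr13:83713157-83713160, in no annotated gene and 46.1 kb past the end of Mef2c (45 animals, 416 insertions). The fifth was chr13:83662226-83662229, inside Mef2c and the overlapping Gm52044 (44 animals, 407 insertions). No position of the domain had more than 20 insertions in any 1 animal. Cortices were processed in 10 pieces, so a position hit in both orientations in every piece would count 20. It was reached or nearly reached (19 to 20) in C57bl6J, Syn1Cre, Syn1CreNeg, GFAPCre and GFAPCreNeg, but the highest counts were 10 to 13 in Syn1Cre_SP1_P10 and 3 to 4 in Rbp4Cre_TRAP. At chr13:84064540-84064543 the mean was 10.7 IPM in C57bl6J and 117 in Syn1Cre_SP1_P10, values that differ in depth as well as in group.

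The groups divided the domain differently between the sequence before Mef2c and that after it. These segments, of 1004 kb before the start, 163 kb of gene and 833 kb after the end, were set after the values were seen, and their shares are given without a test. The groups also differ in depth, and its part in the shares was not tested. In Syn1Cre 22.5% ± 3.71 of the domain's insertions lay before Mef2c, 20.1% ± 1.78 in it and 57.4% ± 5.35 after it (SD, n = 6). In Syn1CreNeg 10.7% ± 1.26 lay before and 77.3% ± 2.45 after (n = 6). GFAPCre had 18.3% ± 2.60 before and 64.6% ± 4.66 after, and GFAPCreNeg 14.3% ± 3.16 and 71.6% ± 6.10 (n = 6 each).

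Rbp4Cre_TRAP, C57bl6J and BrokenHeart had the largest shares before the gene, of 28.8% ± 3.57 (n = 4), 32.5% ± 1.75 (n = 2) and 30.7% ± 7.35 (n = 3). In Syn1Cre_SP1_P10 the share before Mef2c was 14.8% ± 1.05 (n = 3), and in Syn1Cre_SP1_P28 it was 6.53% ± 2.05 (n = 4), below every Syn1Cre animal (15.4% to 25.5%). Over distinct positions the mean shares before Mef2c were 12.8% in Syn1Cre_SP1_P28, 32.9% in Syn1Cre and 19.3% in Syn1CreNeg. Frontflip_GFAPCre had 10.9% ± 1.78 before the gene and 78.0% ± 3.64 after it (n = 3). In Frontflip_GFAPCreNeg 91.8% ± 6.03 lay after the gene (n = 3).

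**Figure D3:**
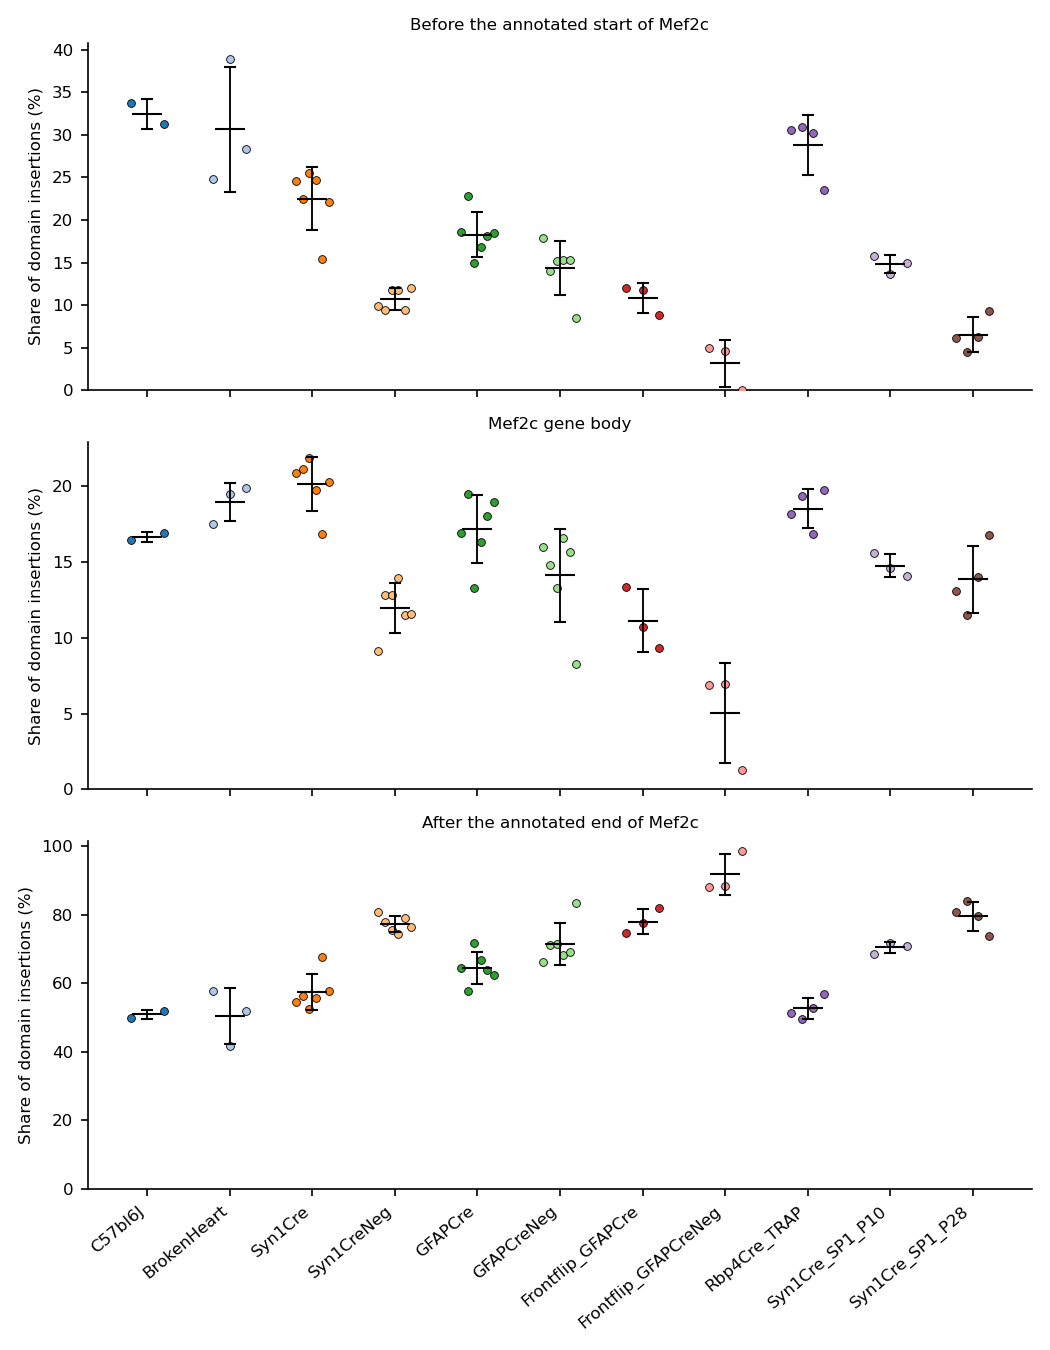
Share of each animal's domain insertions (percent) before, in and after Mef2c, with group mean and SD. The share after the gene is lowest in BrokenHeart, C57bl6J and Rbp4Cre_TRAP and highest in Frontflip_GFAPCreNeg.

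With neuronal Cre, windows before Mef2c were higher and windows after it lower than without Cre. Of 31 domain windows tested in Syn1Cre against Syn1CreNeg, 20 passed (edgeR quasi-likelihood test, adjusted p under 0.05 over all 14950 windows), where 30.3% of all windows passed. The 8 higher windows were 7 before Mef2c and 1 in it, and the 12 lower ones all lay after it. The strongest increase was in the window from 82700001 to 82750000, centred at -779 kb from the start of Mef2c, which held 87.7 to 130 IPM in Syn1Cre (median 98.4) and 18.6 to 52.1 in Syn1CreNeg (median 36.4). These ranges did not overlap (log2 fold change 1.32, SE 0.21, adjusted p = 4.39e-05 in edgeR). The window just before the one with the Mef2c start, from 83450001 to 83500000, held 86.7 to 117 in Syn1Cre (median 95.7) and 40.7 to 83.7 in Syn1CreNeg (median 44.4), again without overlap (0.89, SE 0.18, adjusted p = 0.000458 in edgeR). The Syn1Cre values were part of the contrast that chose the domain. Rises before Mef2c and their p-values are therefore not independent of that choice.

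The strongest decrease was in the window from 84000001 to 84050000, which holds the other part of Gm17750 and held 62.4 to 264 IPM in Syn1Cre (median 112) and 185 to 372 in Syn1CreNeg (median 322). Here the ranges overlapped through Syn1Cre animal 5, at 264 (log2 fold change -1.35, SE 0.26, adjusted p = 0.000249 in edgeR). The Mir9-2 window fell by 0.69 on the log2 scale (SE 0.20, adjusted p = 0.0117 in edgeR) and the Gm17750 window by 1.09 (SE 0.22, adjusted p = 0.00051 in edgeR). The window with the Mef2c start did not pass. Markers of cell types moved with this comparison. The summed insertions at 12 astrocyte marker genes were 688 to 2451 IPM in Syn1Cre (median 898) and 2512 to 3377 in Syn1CreNeg (median 2815), with 10 of 11 tested markers lower, and the sums at 8 excitatory neuron markers were 1989 to 2528 and 1374 to 2112, with 3 of 7 tested higher. The sums at 7 inhibitory neuron markers were 534 to 693 IPM in Syn1Cre and 83.7 to 205 in Syn1CreNeg, 6 of 6 tested higher and a median of 2.26 on the log2 scale. Syn1Cre animal 5 had the highest astrocyte sum of its group, 2451. The part of these cell types and of depth in the domain's differences was not tested, and fewer cells of a type and fewer insertions per cell cannot be told apart.

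**Figure D4:**
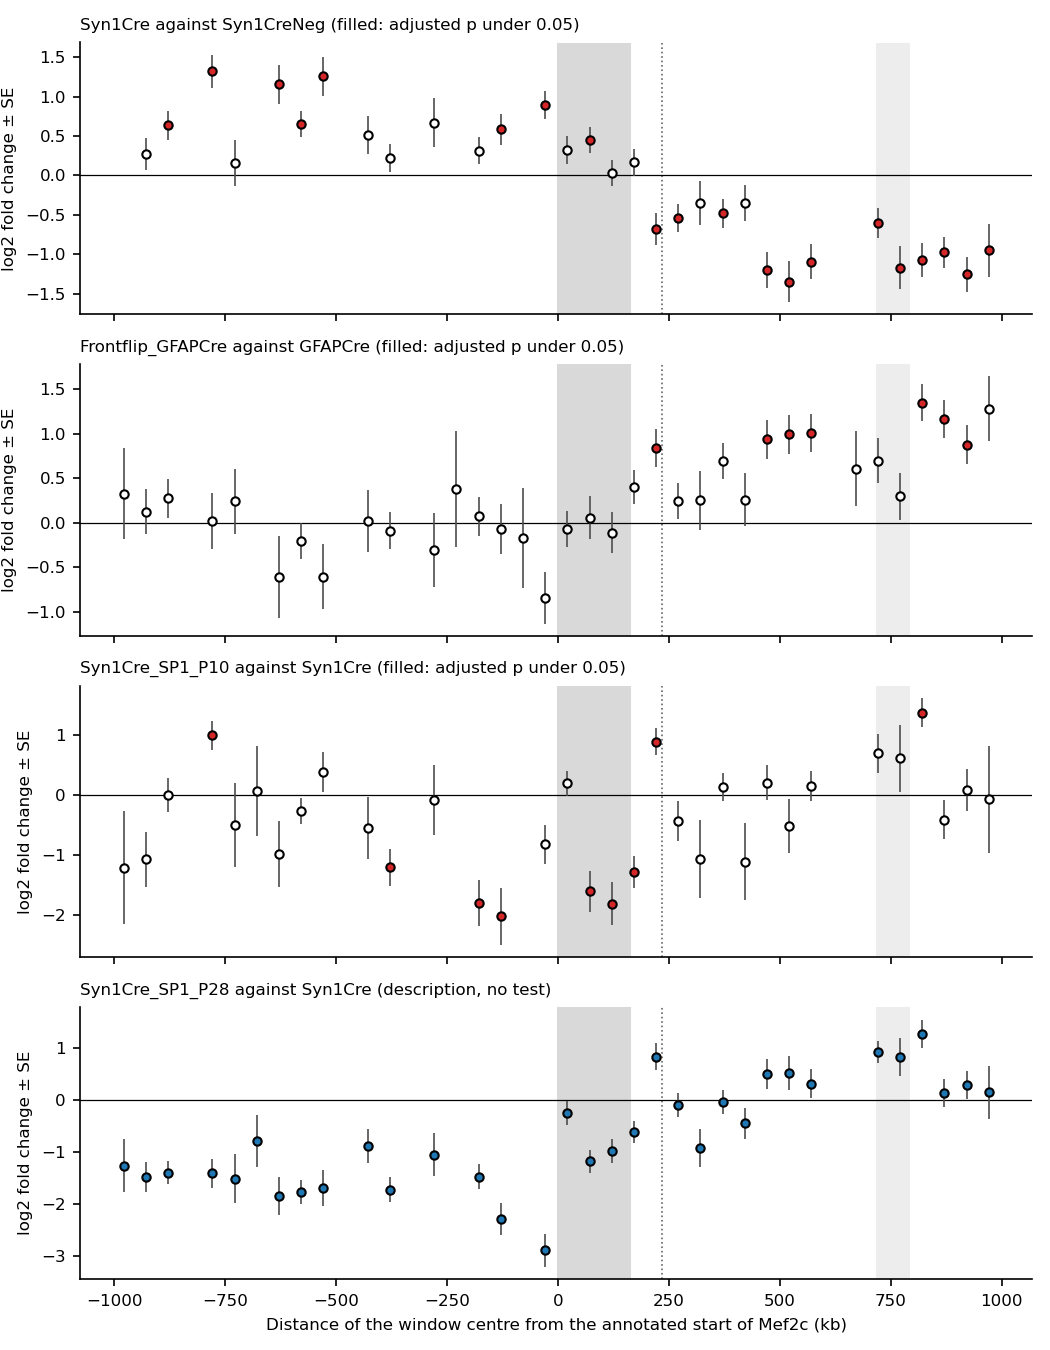
log2 fold change with SE in each domain window tested for 4 comparisons, against the distance from the start of Mef2c (bands and dotted line as in the profile of the means). Filled points passed in the 3 comparisons that were tested; the SP1 P28 panel is a description, and a window without insertions in the SP1 P10 animals is left out.

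With GFAP Cre no domain window passed. Of 33 windows tested in GFAPCre against GFAPCreNeg 0 passed in edgeR and 0 in DESeq2, 7 had an unadjusted p under 0.05 in edgeR, and 6.14% of all windows passed. Without GFAPCre animal 3, 1 window passed. The difference between the Cre effects of both lines was tested with an interaction term, which was added after the data were seen. In that fit 1 of 34 domain windows passed in edgeR, against 0.717% of all windows. It was the window from 82700001 to 82750000, where the Syn1 effect was 1.34 and the GFAP effect 0.01 on the log2 scale (difference 1.33, SE 0.28, adjusted p = 0.0159 in edgeR).

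The same window separated Syn1Cre from GFAPCre, which held 28.3 to 64.6 IPM there (median 54.8), below all Syn1Cre animals. Its log2 fold change was 0.94 (SE 0.15, adjusted p = 0.000843 in edgeR). It was 1 of 4 domain windows among 36 that passed in Syn1Cre against GFAPCre, 2 higher and 2 lower, where 2.84% of all windows passed. The largest decrease was in the window from 84150001 to 84200000, with 2.26 to 14.8 IPM in Syn1Cre (median 7.76) and 13.2 to 28.3 in GFAPCre (median 19.5), overlapping in range, at -1.11 (SE 0.28, adjusted p = 0.0306 in edgeR). That window no longer passed without GFAPCre animal 1, 3 or 5 or without Syn1Cre animal 2, 3 or 4 (adjusted p from 0.0595 to 0.0804). The count of 4 was 11 without Syn1Cre animal 5. It was 1 or 2 without Syn1Cre animal 1, 2, 3, 4 or 6 or without GFAPCre animal 1, 3, 4 or 5. The summed insertions at 7 inhibitory neuron markers were 534 to 693 IPM in Syn1Cre and 102 to 148 in GFAPCre, and their part in the window before Mef2c was not tested.

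**Figure D5:**
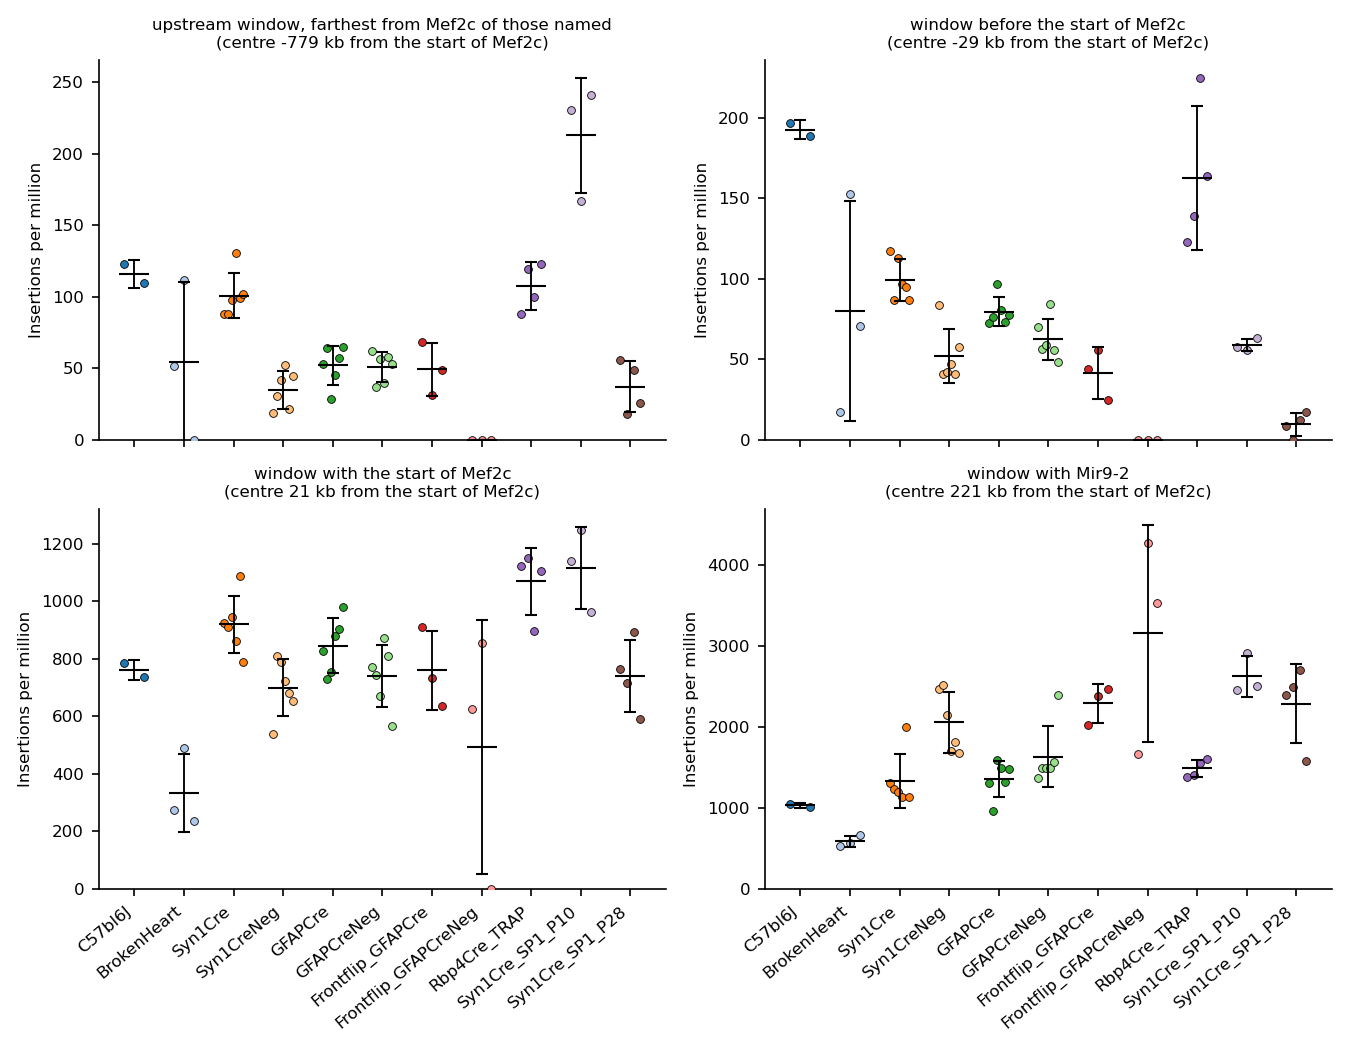
IPM in 4 windows for each animal, with group mean and SD (bars clipped at 0). In the window at -779 kb the Syn1Cre animals lie above the Syn1CreNeg, GFAPCre and GFAPCreNeg animals and the SP1 P10 animals lie highest.

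Frontflip_GFAPCre differed from GFAPCre after Mef2c. Of 35 windows tested, 7 rose, all of them after the gene, and none fell, where 1.52% of all windows passed in edgeR. The strongest was the window from 84300001 to 84350000, which touches the long non-coding RNA gene Gm41011 and held 666, 828 and 930 IPM in Frontflip_GFAPCre and 217 to 431 in GFAPCre (median 342), without overlap (log2 fold change 1.35, SE 0.21, adjusted p = 0.00164 in edgeR). The smallest passing change was in the Mir9-2 window, with 2019, 2378 and 2472 against at most 1589 (0.84, SE 0.21, adjusted p = 0.0366 in edgeR). The count of 7 rested on single animals. It was 0 without Frontflip_GFAPCre animal 3 and 1 without animal 2, and 3 or 4 without GFAPCre animal 1, 5 or 6. Without Frontflip_GFAPCre animal 3 the Gm41011 window stood at 1.20 with an adjusted p of 0.0649 in edgeR. Without any 1 of the Frontflip_GFAPCre animals or of GFAPCre animals 1, 4, 5 and 6, the Mir9-2 window had an adjusted p between 0.0511 and 0.296 in edgeR. Astrocyte marker sums were 1970 to 2955 IPM in Frontflip_GFAPCre and 936 to 1965 in GFAPCre, and their part in the difference was not tested. Neither was the part of depth (160631 to 205559 insertions per table against 600443 to 1505413).

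SP1 animals of postnatal day 28 had few insertions before Mef2c, the pattern for which the domain was picked. The window from 83450001 to 83500000 held 8.62, 0, 12.1 and 17.3 IPM in the 4 animals (log2 fold change against Syn1Cre -2.90, SE 0.32). These were 14 insertions among 1083099 of the group, against 547 among 5573110 in Syn1Cre. The segment before the gene held 358 to 547 IPM, below the Syn1Cre range of 1432 to 1773. The segment after it held 6472, 6782, 7016 and 3830 IPM, and that of Syn1Cre 3652 to 6702 (median 3752), so that 2 SP1 animals lay above all Syn1Cre animals and 2 within their range. Of 33 windows fitted, 17 lay lower and 3 higher past the threshold used elsewhere, and 39.0% of all windows did so. These counts come from the values that chose the domain, and nothing is read from them. The Gm41011 window stood at 1.29 (SE 0.27) and the Mir9-2 window at 0.84 (SE 0.26). Windows just outside the domain were low in both groups. The one before it held 15.9 IPM in Syn1Cre and 5.41 in SP1 P28, and the one after it 6.50 and 7.49. The first window inside held 16.5 and 5.85, and the last 14.9 and 16.8. Excitatory neuron marker sums were 1257 to 1421 IPM in SP1 P28 and 1989 to 2528 in Syn1Cre. Inhibitory neuron sums were 765 to 982 and 534 to 693, and astrocyte sums 1169 to 2679 and 688 to 2451. Their part was not tested. The tables held 108965 to 577609 insertions in SP1 P28 and 443158 to 1364948 in Syn1Cre. SP1, depth and age, which is not given for Syn1Cre, cannot be told apart.

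SP1 animals of postnatal day 10 were set against the same Syn1Cre animals as in the contrast for which the domain was picked. Of 34 domain windows tested in Syn1Cre_SP1_P10 against Syn1Cre, 10 passed in edgeR, 3 higher and 7 lower, and 24.2% of all windows passed, with a median over all windows of -0.47. The split depended on the counting, with 8 higher and 4 lower when each position was counted once. Excitatory neuron marker sums were 1301 to 1459 IPM in SP1 P10 and 1989 to 2528 in Syn1Cre, with 6 of 8 tested lower. Inhibitory neuron sums were 1128 to 1542 and 534 to 693, with 4 of 6 tested higher, and astrocyte sums 986 to 1236 and 688 to 2451, with 1 of 12 tested lower. The part of these cell types was not tested. The tables held 86842 to 95331 insertions in SP1 P10 and 443158 to 1364948 in Syn1Cre. SP1, depth and age, which is not given for Syn1Cre, cannot be told apart. The Gm41011 window held 656, 936 and 734 IPM in SP1 P10 and 234 to 476 in Syn1Cre (median 246), without overlap (1.37, SE 0.24, adjusted p = 9.21e-05 in edgeR). The Mir9-2 window rose by 0.89 (SE 0.22, adjusted p = 0.00415 in edgeR), though without SP1 P10 animal 2 it stood at 0.74 with an adjusted p of 0.0582 in edgeR.

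Against the direction seen at postnatal day 28, the window at -779 kb was higher in SP1 P10, with 230, 167 and 241 IPM against 87.7 to 130 in Syn1Cre (0.99, SE 0.25, adjusted p = 0.00366 in edgeR). Without SP1 P10 animal 3 this was 0.83 with an adjusted p of 0.0629 in edgeR. Windows close before Mef2c and inside it fell. The Syn1Cre values here took part in choosing the domain, so these falls and their p-values are not independent of that choice and give it no support. The window from 83350001 to 83400000 held 23.0, 11.1 and 21.0 in SP1 P10 and 60.8 to 90.7 in Syn1Cre (median 69.8), a fall by 2.02 (SE 0.48, adjusted p = 0.00244 in edgeR). In the window after it, from 83400001 to 83450000, the SP1 P10 animals had no insertion and Syn1Cre had 75. With a floor of 3 counts over the group it was at least 1.2-fold lower (adjusted p = 0.0429 in edgeR), and the call was lost without any 1 of the SP1 P10 animals (adjusted p from 0.114 to 0.123), with total insertions (0.0522) and with DESeq2 (0.0741). The window with the end of Mef2c held 161, 100 and 115, below the Syn1Cre range of 259 to 320 (-1.28, SE 0.27, adjusted p = 0.000621 in edgeR). With each position counted once it stood at -0.31 with an adjusted p of 0.484 in edgeR. The window with the start of Mef2c did not pass.

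The SP1 P28 animals of the next comparison are those whose low values chose the domain. Falls at day 28 and their p-values are therefore not independent of that choice and give it no support. Between the ages, 3 of 14 windows tested passed in Syn1Cre_SP1_P28 against Syn1Cre_SP1_P10, 2 lower at day 28 and 1 higher, where 15.9% of all windows passed in edgeR. The largest fall was in the window at -779 kb, from 230, 167 and 241 IPM at day 10 to 56.1, 18.4, 48.6 and 26.0 at day 28, without overlap (-2.37, SE 0.33, adjusted p = 0.00121 in edgeR). The rise was in the window from 84000001 to 84050000 (0.98, SE 0.33, adjusted p = 0.0488 in edgeR), which held 115, 100 and 62.9 at day 10 and 220, 211, 194 and 97.0 at day 28 with an overlap through the fourth animal. That call was lost without any 1 of the SP1 P10 animals or of SP1 P28 animals 1, 2 and 3 (adjusted p from 0.075 to 0.302), and with the total number of insertions as library size (adjusted p = 0.112). The count of 3 was 6 without SP1 P28 animal 4. Astrocyte marker sums were 986 to 1236 IPM at day 10 and 1169 to 2679 at day 28, and excitatory neuron sums 1301 to 1459 and 1257 to 1421. Inhibitory neuron sums were 1128 to 1542 at day 10 and 765 to 982 at day 28, without overlap, with 2 of 5 tested lower. Their part was not tested.

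Against C57bl6J, which shares no animals with the contrast used for the choice, 18 of 20 windows tested passed for Syn1Cre_SP1_P10, 1 higher and 17 lower, where 73.9% of all windows passed in edgeR. These directions depended on the scaling. With TMM factors the median of all windows was 0.03, and with the total number of insertions as library size it was 1.27 and the split in the domain was 5 higher and 8 lower. The window from 83350001 to 83400000 held 23.0, 11.1 and 21.0 IPM in SP1 P10 and 180 and 132 in C57bl6J, a fall by 4.28 (SE 0.40, adjusted p = 4.6e-11 in edgeR). It ranged from -4.40 to -2.93 with 1 animal left out, and was smallest in size without SP1 P10 animal 2. The Gm41011 window rose, from 241 and 213 in C57bl6J to 656, 936 and 734 (0.54, SE 0.14, adjusted p = 0.00106 in edgeR). It no longer passed with distinct positions (0.17, adjusted p = 0.514 in edgeR) or at least 2 reads (0.18, adjusted p = 0.293 in edgeR). The window with the Mef2c start, at 785 and 736 in C57bl6J and 965 to 1248 in SP1 P10, stood at -0.68 with TMM factors and at 0.55 with the total number of insertions. Without any 1 of the SP1 P10 animals it stood between 0.34 and 0.52. The count of 18 was 9 without SP1 P10 animal 1 and 11 without animal 3. Excitatory neuron marker sums were 1301 to 1459 IPM in SP1 P10 and 2167 to 2347 in C57bl6J, with 5 of 6 tested lower. Inhibitory sums were 1128 to 1542 and 452 to 489, with 4 of 5 tested higher. Astrocyte sums were 986 to 1236 and 549 to 615, with 1 of 3 tested higher and 1 lower. Their part was not tested. The groups differ in SP1, in Cre and in depth (86842 to 95331 and 1545951 to 2186743 insertions), which cannot be told apart.

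Layer V neurons, read from RNA on ribosomes, gave no passing window. Of 37 windows tested in Rbp4Cre_TRAP against Syn1Cre 0 passed in edgeR and 1 in DESeq2, 9 had an unadjusted p under 0.05 in edgeR, and 1.06% of all windows passed. Without Syn1Cre animal 5, 4 windows passed. The window just before the Mef2c start held 123, 139, 225 and 164 IPM in Rbp4Cre_TRAP, above the Syn1Cre range of 86.7 to 117, on 27 insertions. Excitatory neuron marker sums were 3059 to 4179 IPM, above the Syn1Cre range, with 1 of 8 tested higher. The sums at 7 inhibitory markers were 0 to 125 IPM (median 58.5) and 534 to 693 in Syn1Cre, with 3 of 6 tested lower. Gad1, Dlx2 and Lhx6 were at 0. Astrocyte sums were 199 to 656 and 688 to 2451, with 1 of 10 tested lower. The Rbp4Cre_TRAP tables held only 24408 to 57014 insertions, and the part of these cell types was not tested. On simulated data of this comparison, 12.5% of windows changed 3-fold were recovered. The median of all windows was -0.42 with TMM factors and -0.06 with the total number of insertions.

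In BrokenHeart, the group read from DNA, 9 of 21 windows tested passed against C57bl6J, 1 higher and 8 lower, where 51.8% of all windows passed in edgeR. With the total number of insertions as library size 13 fell and none rose. The lowest was the window from 83750001 to 83800000, with 68.6, 20.4 and 23.5 IPM against 135 and 170 (-1.88, SE 0.49, adjusted p = 0.0012 in edgeR). Without C57bl6J animal 2 it stood at -2.11 with an adjusted p of 0.0519 in edgeR. The only rise, in the Gm41011 window (412, 255 and 259 against 241 and 213, log2 fold change 0.67, SE 0.24, adjusted p = 0.0144 in edgeR), was lost without any 1 of the 5 animals, and it stood at -0.19 without BrokenHeart animal 1. The count of 9 was 14 without BrokenHeart animal 3 and 5 without C57bl6J animal 1. When each position was counted once per animal, the Mir9-2 and Gm17750 windows stood at 0.51 and 0.62 instead of -0.59 and -0.59. Excitatory neuron marker sums were 1047 to 1365 IPM in BrokenHeart and 2167 to 2347 in C57bl6J, with 6 of 6 tested lower, and astrocyte sums 754 to 1390 and 549 to 615, with 3 of 5 tested higher; their part was not tested. The groups differ in depth, in nucleic acid and in transposon, which cannot be told apart.

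At the gene itself, insertions over Mef2c with 10 kb on each side were 1350 to 1688 IPM in Syn1Cre (median 1450) and 1024 to 1425 in Syn1CreNeg (median 1130). The locus rose by 0.33 with Syn1 Cre (SE 0.11, adjusted p = 0.0227 in edgeR over all gene loci), where 30.7% of all loci passed. Without Syn1CreNeg animal 1, 5 or 6 the adjusted p lay between 0.0568 and 0.101, and with each position counted once the change was -0.07. Against GFAPCreNeg, GFAPCre did not pass (0.19, SE 0.10, adjusted p = 0.239 in edgeR, 8.26% of all loci), and neither did Syn1Cre against GFAPCre (0.08, SE 0.10, adjusted p = 0.735 in edgeR, 2.19% of all loci).

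With SP1 at postnatal day 10 the Mef2c locus held 1164 to 1448 IPM, within and below the Syn1Cre range. It stood at -0.71 (SE 0.15, adjusted p = 0.000346 in edgeR), where 40.8% of all loci passed, but at -0.16 (adjusted p = 0.363) with the total number of insertions as library size. At postnatal day 28 it held 890 to 1257 IPM, with a mean of 1036 ± 162 (SD, n = 4) against 1479 ± 124 in Syn1Cre (n = 6), given as a description.

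Per kilobase, Mef2c was the most densely hit of its family. In Syn1Cre it had 8.08 IPM per kb, Mef2d 1.38, Mef2a 0.464 and Mef2b 0.325. In N2a the order was different, with 0.0406 for Mef2c, 0.667 for Mef2d, 0.547 for Mef2a and 1.32 for Mef2b. Mef2d, a MEF2 factor of many tissues, rose with SP1 at postnatal day 10, from 56.4 to 82.4 IPM in Syn1Cre to 145 to 253 (0.91, SE 0.23, adjusted p = 0.00267 in edgeR). Its groups did not overlap. Tmem161b, the neighbour of Mef2c, was lower in Syn1Cre than in Syn1CreNeg (98.0 ± 32.6 against 156 ± 41.9 IPM, SD, n = 6 each, -0.78, SE 0.19, adjusted p = 0.00275 in edgeR).

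Among 25 other genes of the Mef2 pathway (family, regulators and genes described as neuronal targets), the counts in the Cre comparisons were as follows. In Syn1Cre against GFAPCre 1 of 23 tested fell and none rose, where 2.19% of all loci passed (Ppp3ca, a calcineurin catalytic subunit, -0.39), with a median of -0.11 against 0.00 over all loci. In Syn1Cre against Syn1CreNeg 1 of 20 rose, where 30.7% of all loci passed (Camk4, a calcium-dependent kinase, 0.35) and 2 fell (Ppp3ca, -0.40, and the calcineurin subunit Ppp3cb, -0.86), with a median of -0.08 against 0.02. In GFAPCre against GFAPCreNeg 1 of 20 rose (Mef2d, 0.44) and none fell, where 8.26% of all loci passed, with a median of 0.09 against 0.01. These counts rested on single animals and settings. The count of 1 in Syn1Cre against GFAPCre was 0 with distinct positions and without GFAPCre animal 1, 4 or 6 or Syn1Cre animal 1, 2 or 3, and 2 without flanks and without GFAPCre animal 3 or Syn1Cre animal 4 or 5. The count of 3 in Syn1Cre against Syn1CreNeg was 1 without Syn1CreNeg animal 4 and 5 without Syn1Cre animal 5. The count of 1 in GFAPCre against GFAPCreNeg was 0 with total insertions, DESeq2, distinct positions or no flanks. It was also 0 without GFAPCreNeg animal 1, 2, 3 or 4 or GFAPCre animal 1, 2 or 6, and 2 without GFAPCre animal 4.

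With SP1 at postnatal day 10 against Syn1Cre, 6 of 24 rose and 8 fell, where 40.8% of all loci passed, with a median of -0.23 against -0.28. Over all loci, 2528 rose and 2713 fell with TMM factors, and 3650 rose and 1147 fell with the total number of insertions as library size. The count of 14 in the list was 9 with distinct positions and 6 without flanks. Among those that rose were Mef2d, the deacetylase Hdac5 (1.49), the kinase Mapk7 (1.46), the acetyltransferase Ep300 (0.82) and the target Arc (1.63), a protein of synapses. Those that fell were the deacetylases Hdac4 and Hdac9 (-1.87), the kinases Mapk14 (-1.42), Camk4 (-2.25) and Camk2a (-1.04), Ppp3ca (-2.18), the coactivator Ncoa2 (-1.19) and the adhesion molecule Pcdh10 (-1.62).

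The gene loci whose group means followed those of Mef2c most closely, over 10 groups of brain samples and 13156 loci, were Odaph (Pearson r = 0.961), Gpr25 (0.953), Frrs1 (0.951), Tagap (0.95) and Btn1a1 (0.95). These correlations of log2 values are a description over group means that differ in depth, and the 5 loci had lower levels than Mef2c, 20.8 IPM for Odaph and 63.9 for Btn1a1 in Syn1Cre.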

How the data were processed

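Transposon insertions were recorded in 46 mouse brains in 11 groups and in N2a cells (1 table that pools 3 experiments). The tables, deposited by the authors, list insertions on mm10, and insertion counts were made here by counting their lines. Per the submitters' processing notes Novoalign and Bowtie2 were used; their roles are not given in the sources used here. Lines were counted in 50 kb windows and over protein-coding genes with 10 kb on each side, and divided by the table's insertions, times 1000000. Windows and loci were tested with edgeR 4.0.16 in R 4.3.3 (quasi-likelihood test, TMM factors, low-count filter, only the groups compared, Benjamini-Hochberg adjustment over all windows or loci, threshold 0.05). Alternatives were total insertions as library size, DESeq2 1.42.0, no filter, distinct positions, at least 2 reads, blocks and leaving out each animal. The domain, gene lists and tests were chosen with earlier results of these data known. Named windows were those before and at the start of Mef2c and at its end, the highest of each group, and those with the highest and lowest fold change past the threshold in each comparison; Mef2 genes past the threshold were named, except 1 that is not reported here, with the 5 loci most like Mef2c and the 5 most widely hit positions. On simulated counts, 12.5% (Rbp4Cre_TRAP against Syn1Cre) to 87% (Syn1Cre against GFAPCre) of windows changed 3-fold were recovered. Replicate numbers did not pair the animals (correlations from -0.226 to 0.209). The labels do not name litters, so p-values measure the spread between these animals.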

Additional observations from a re-analysis of the deposited data

Results flagged for a closer look

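Of 96 groups of values examined, 18 had an animal far from the others of its group, where chance flags about 1 in 20. Syn1Cre animal 5 stood above the other animals in the whole domain (9890 IPM, the others 6473 to 6942) and after Mef2c (6702, the others 3652 to 3789). The same animal was highest in the Mir9-2 window (2002 IPM), in the windows from 84000001 (264) and 84050001 (1656) over Gm17750 and in the Gm41011 window (476). GFAPCreNeg animal 6 stood out in the same places, with 10603 IPM in the domain (the others 7647 to 8122), 8834 after Mef2c, 2389 in the Mir9-2 window, 505 and 2105 in the windows over Gm17750 and 658 in the Gm41011 window. Both animals had the fewest insertions of their groups (443158 in Syn1Cre animal 5 and 208057 in GFAPCreNeg animal 6). Both also had the highest astrocyte marker sums of their groups. These were 2451 IPM in Syn1Cre animal 5 (the others 688 to 987) and 3715 in GFAPCreNeg animal 6 (the others 1764 to 2191). The parts of depth and of cell types were not tested.

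Further single animals stood apart in 1 window or segment each. In the window from 83350001, GFAPCreNeg animal 3 had 71.5 IPM (the others 31.2 to 44.8) and Syn1CreNeg animal 2 had 92.3 (the others 35.9 to 55.8). GFAPCre animal 3 had 96.6 in the window just before the one with the Mef2c start (the others 72.4 to 80.4), and Syn1Cre animal 4 had 130 in the window at -779 kb (the others 87.7 to 102). SP1 P28 animal 4 was low after Mef2c (3830 IPM, the others 6472 to 7016), and SP1 P28 animal 3 was high in the window with the end of Mef2c (243, the others 151 to 166). SP1 P28 animal 4 (577609) and Syn1Cre animal 4 (1364948) had the most insertions of their groups. Syn1CreNeg animal 2 (97519) and GFAPCre animal 3 (600443) had the fewest, and GFAPCreNeg animal 3 and SP1 P28 animal 3 neither. SP1 P28 animal 4 also had the lowest astrocyte marker sum of its group (1169 IPM, the others 2182 to 2679). The parts of depth and of cell types were not tested. The Cre effects of the Syn1 and GFAP lines differed in the window at -779 kb by 1.33 on the log2 scale, by the interaction term.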

How the results depend on the processing

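With each position counted once per animal, the domain difference passed for Syn1Cre against Syn1CreNeg (-0.55), GFAPCre against GFAPCreNeg (-0.23) and SP1 P10 against Syn1Cre (0.83). It also passed for Rbp4Cre_TRAP against Syn1Cre (0.96) and Frontflip_GFAPCre against GFAPCre (0.70). In each of these the group with fewer insertions per table on average was the higher one. BrokenHeart against C57bl6J turned to 0.055. The part of depth was not tested. With TMM factors Rbp4Cre_TRAP against Syn1Cre turned to -0.20 and SP1 P10 against C57bl6J to -1.01. Of the 4 windows in Syn1Cre against GFAPCre, DESeq2 gave 2, distinct positions 2, at least 2 reads 1, the replicate block 1 and the layout of the labels as a block 10. GFAPCre against GFAPCreNeg gave 1 without the filter and 1 with distinct positions, and SP1 P28 against P10 gave 5 with at least 2 reads. Rbp4Cre_TRAP against Syn1Cre gave 1 with total insertions, 1 with DESeq2, 7 without the filter, 6 with distinct positions, 2 with at least 2 reads and 1 with the replicate block. BrokenHeart against C57bl6J gave 21 without the filter, and SP1 P10 against C57bl6J gave 7 with distinct positions. The replicate block, used although the numbers do not pair the animals, gave 19 windows in Syn1Cre against Syn1CreNeg, 12 in SP1 P10 against Syn1Cre (6 higher and 6 lower), 6 in BrokenHeart against C57bl6J and 5 in Frontflip_GFAPCre against GFAPCre. With it the window from 83400001 in SP1 P10 against Syn1Cre had an adjusted p of 0.0793 in edgeR, and the Mef2 list had 0 calls in Syn1Cre against GFAPCre and in GFAPCre against GFAPCreNeg. The causes were not tested.

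Leaving out 1 animal at a time, the domain difference ranged from -0.51 to -0.37 (Syn1Cre against Syn1CreNeg) and from 0.19 to 0.31 (Rbp4Cre_TRAP against Syn1Cre). The window counts ranged from 1 to 11 (Syn1Cre against GFAPCre), 0 to 1 (GFAPCre against GFAPCreNeg), 2 to 6 (SP1 P28 against P10), 0 to 4 (Rbp4Cre_TRAP), 5 to 14 (BrokenHeart), 0 to 9 (Frontflip_GFAPCre) and 9 to 19 (SP1 P10 against C57bl6J).

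At the Mef2c locus the main log2 fold change was -0.16 in Rbp4Cre_TRAP against Syn1Cre and 0.0014 in Frontflip_GFAPCre against GFAPCre, and neither passed in edgeR. It was -0.76 in BrokenHeart against C57bl6J (754 of 1883 loci passed) and -0.91 in SP1 P10 against C57bl6J (2764 of 3328), and both passed. With distinct positions the direction turned in Syn1Cre against Syn1CreNeg (-0.074), GFAPCre against GFAPCreNeg (-0.053) and Rbp4Cre_TRAP against Syn1Cre (0.54). It also turned so in BrokenHeart against C57bl6J (0.085) and SP1 P10 against C57bl6J (0.36). It turned with total insertions in Rbp4Cre_TRAP (0.11), Frontflip_GFAPCre (-0.040) and SP1 P10 against C57bl6J (0.026), and without flanks in the last (0.12). Frontflip_GFAPCre also ranged from -0.081 to 0.058 without 1 animal, and stood at 0.44 and passed with distinct positions (adjusted p = 0.0121 in edgeR). In BrokenHeart the Mir9-2 window turned to 0.51 and the Gm17750 window to 0.62 with distinct positions, and the Gm41011 window to -0.28 without the filter and ranged from -0.19 to 0.34 without 1 animal. In SP1 P10 against C57bl6J the window with the Mef2c start turned to 0.55 with total insertions, 0.20 without the filter and ranged from -0.64 to 0.52 without 1 animal. The Gm17750 window turned to 0.59, 0.23, 0.68 (distinct positions), and ranged from -0.61 to 0.51.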
